A study of Homo sapiens with 4 samples.

Results

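IGF2BP3 peaks in short coding exons are peaks whose summit lies inside the coding sequence (CDS), in an exon under 150 nt, away from the stop codon. The replicate 1 list held 14398 such peaks among 44622, and the replicate 2 list held 14637 among 42723, which together is 29035 of 87345 peaks. Members were chosen by position alone: a peak at most 1000 bp wide, with a summit on exactly 1 MANE Select mRNA (the single reference transcript that GENCODE marks for a gene, release 44), in the CDS more than 200 nt before the stop codon. The data came from RNA immunoprecipitation and sequencing (RIP-seq), in which an antibody against the protein, here anti-IGF2BP3, recovers the protein with its RNA from a lysate. The series held 2 RIP and 2 input samples of OE-19, an established line of adenocarcinoma of the esophagogastric junction. All are given as UV-fixed, with no treatment named in the labels. The study's methods describe a UV step only for another assay and not for RIP, so the fixation is uncertain. Only the RIP samples had a peak list here, so no input values were analysed, no test between groups could be made, and each value is given for both replicates. The labels do not say whether the replicates were separate cultures.

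IGF2BP3 is an oncofetal RNA-binding protein of cytoplasmic mRNA that carries RRM and KH domains. It is known as a reader of N6-methyladenosine (m6A), a base modification that lies mostly in long internal exons and around stop codons, in a GGAC-like sequence. Most internal coding exons of human mRNAs are short, and splicing leaves an exon junction complex near each junction. The study asked which mRNAs IGF2BP3 binds, with CDC25A, a phosphatase of the G1-S transition, as its main target.

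The exons below carried the strongest peaks, and are shown because the values that follow are read on them. Each is written 5′ to 3′ on the mRNA strand from the GENCODE 44 transcript, in lower case with the summit base of each replicate in capitals; a single capital means that both summits fell on the same base. Positions are in hg38. The first set holds the 6 exons with the highest mean fold enrichment among exons with a summit in both replicates, and CBLB, which was among the 5 exons with the strongest q value in the weaker replicate.
EIF4G3 exon 13 of 37, chr1:20950003-20950111, minus strand: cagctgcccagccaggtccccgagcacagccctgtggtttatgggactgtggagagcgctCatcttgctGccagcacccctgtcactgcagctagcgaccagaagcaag
R3HDM2 exon 21 of 24, chr12:57257990-57258137, minus strand: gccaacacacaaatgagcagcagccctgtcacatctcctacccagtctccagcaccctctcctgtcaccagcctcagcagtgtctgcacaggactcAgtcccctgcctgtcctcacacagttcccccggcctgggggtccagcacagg
R3HDM2 exon 22 of 24, chr12:57256414-57256511, minus strand: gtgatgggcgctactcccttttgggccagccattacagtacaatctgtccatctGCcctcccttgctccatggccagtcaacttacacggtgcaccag
MED14 exon 23 of 31, chrX:40671861-40671972, minus strand: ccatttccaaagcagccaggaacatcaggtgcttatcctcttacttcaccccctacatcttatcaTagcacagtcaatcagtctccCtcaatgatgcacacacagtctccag
UBE4B exon 24 of 28, chr1:10168136-10168270, plus strand: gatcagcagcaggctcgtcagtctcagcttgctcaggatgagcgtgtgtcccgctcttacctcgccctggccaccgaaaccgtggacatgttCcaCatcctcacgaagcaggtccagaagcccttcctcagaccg
ARHGAP21 exon 16 of 26, chr10:24597447-24597583, minus strand: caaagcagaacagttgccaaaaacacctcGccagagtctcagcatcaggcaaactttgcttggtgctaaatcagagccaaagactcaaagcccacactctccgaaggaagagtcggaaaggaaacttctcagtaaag
CBLB exon 13 of 19, chr3:105693494-105693588, minus strand: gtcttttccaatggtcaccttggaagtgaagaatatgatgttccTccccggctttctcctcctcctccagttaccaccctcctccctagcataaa

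EIF4G3, a scaffold of cap-dependent translation initiation, held the strongest of these peaks. Its exon 13 of 109 nt had a fold enrichment (RIP pileup over the peak caller's local background at the summit) of 10.95 in replicate 1 and 8.859 in replicate 2. The caller's q values, which are p-values corrected over the list, were 1.374e-13 and 3.637e-08. The peaks were 156 and 144 bp wide and ran past both ends of the exon, and their summits lay 9 nt apart. R3HDM2, which has an R3H nucleic-acid-binding domain, held strong peaks in neighbouring exons. Exon 21 had folds of 10.07 and 8.043 with both summits on base 97 of the exon, and exon 22 had 9.289 and 8.844 with summits 1 nt apart. Both R3HDM2 summits also lay on an exon of a second annotated coding gene on the same strand, ENSG00000258830.1, so their gene is uncertain. Over all members, 3.632% and 3.853% of summits lay on an exon of another GENCODE gene as well.

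MED14 is a subunit of the Mediator complex, which links transcription factors to RNA polymerase II. Its exon 23 had folds of 9.052 and 7.39, and its summits lay 21 nt apart. UBE4B, a ubiquitin ligase, had 8.27 and 7.684 in exon 24, with summits 3 nt apart. Here the widths were unequal, at 47 and 100 bp. ARHGAP21 had 8.122 and 7.745 in exon 16, and CBLB, a ubiquitin ligase that restrains receptor signalling, had 7.97 and 7.133 in exon 13. In these last exons both replicates put the summit on the same base. All of these exons were higher in replicate 1 than in replicate 2. Of the sequences printed above, GGAC stands in EIF4G3, R3HDM2 exon 21 and UBE4B, and TGGAC in UBE4B.

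The shortest exons with a summit in both replicates are shown next, since there the peak was wider than the exon it was assigned to.
SH3PXD2A exon 6 of 15, chr10:103693028-103693056, minus strand: gGactatggcagttccaagaGgaaatcag
AUTS2 exon 13 of 19, chr7:70775357-70775386, plus strand: ttgacagatcCtttcagacctatgttaaGg
MAST2 exon 4 of 29, chr1:45882364-45882395, plus strand: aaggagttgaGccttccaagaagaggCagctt
ARHGAP21 exon 25 of 26, chr10:24589271-24589302, minus strand: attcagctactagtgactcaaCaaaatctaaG
CCAR1 exon 5 of 25, chr10:68740629-68740661, plus strand: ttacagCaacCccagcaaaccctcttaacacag

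SH3PXD2A encodes a scaffold of invadopodia, and its 29 nt exon had peaks of 47 and 40 bp with folds of 2.922 and 2.523. AUTS2, a nuclear protein linked to neurodevelopment, had folds of 2.926 and 3.039 in an exon of 30 nt. MAST2, a microtubule-associated kinase, had 4.324 and 2.767 in an exon of 32 nt. ARHGAP21 exon 25, also of 32 nt, had 3.233 and 3.125. CCAR1, a coactivator of transcription and a regulator of apoptosis, had 6.021 and 4.481 in an exon of 33 nt. Of these 5 exons only that of CCAR1 had a q of at most 0.05 in both replicates, with 6.214e-05 and 0.01424. The summits of a pair lay 4 to 19 nt apart, often near an exon end.

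To ask whether short coding exons held more summits than their length allows, each summit was compared with placement, in which it is equally likely on every eligible CDS position of its own mRNA. This is an exact share of lengths and uses no random draws. Among eligible CDS summits, 50.53% of 28493 in replicate 1 and 52.01% of 28142 in replicate 2 lay in exons under 150 nt, where placement gave 40.63% and 41.24%. The ratio was 1.244 and 1.261, a mean of 1.252 ± 0.0124 (SD, n = 2). The excess over 1 was larger than the spread between replicates. It leaned on the deficit in long exons: with exons of 300 nt or more left out, the ratio was 1.086. With the CDS cut into 5 equal parts and placement made within each part, it lay between 1.112 and 1.161 over all parts and both replicates, so short exons exceeded placement from the start of the CDS to its end.

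The ratio rose and then fell with exon length. Exons of 1 to 49 nt had 1.026 and 1.173, so the replicates differed there, on 248 and 288 summits. Exons of 75 to 99 nt had 1.265 and 1.309, and those of 125 to 149 nt had 1.225 and 1.207. There was no step at the limit used here, because exons of 140 to 149 nt had 1.199 and 1.195 and those just outside, of 150 to 159 nt, had 1.17 and 1.15. The ratio passed below 1 in exons of 200 to 299 nt, at 0.9701 and 0.9318, and reached 0.4737 and 0.4524 in exons of 1000 nt or more. In summits per kilobase of eligible CDS of the mRNAs with summits, short classes held 2.774 to 3.529 and exons of 1000 nt or more held 0.7473 and 0.7165.

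**Figure D1:**
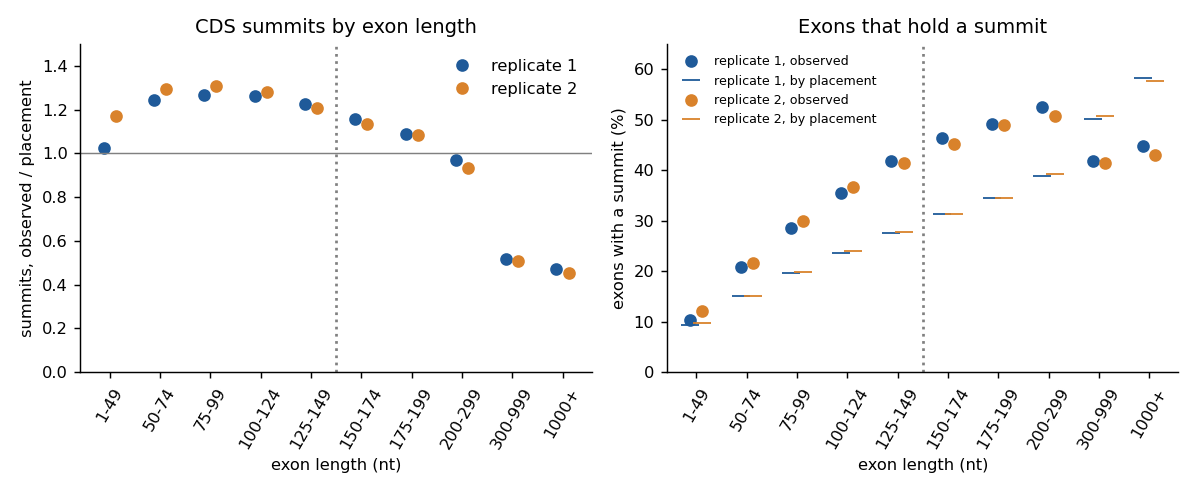
Left, the ratio of observed CDS summits to placement (y axis) in classes of exon length in nt (x axis), with a solid line at 1; right, the percentage of exons that held a summit (points) and the percentage by placement (dashes), on the same classes, with the dotted line at 150 nt and one colour per replicate. Classes from 50 to 199 nt lie above placement in both replicates, and classes from 300 nt lie below it in both panels. The class of 200 to 299 nt lies below placement on the left and above it on the right.

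Counted as exons, 14398 of 45390 short exons in replicate 1 and 14637 of 45085 in replicate 2 held a summit, in the mRNAs with any eligible CDS summit. These are 31.72% and 32.47%, against 21.48% and 21.7% by placement. An excess of exons hit was not particular to short exons. Exons of 150 to 174 nt had 46.38% and 45.24%, against 31.37% and 31.26% by placement. Those of 200 to 299 nt had 52.49% and 50.72%, against 38.9% and 39.16%. No short exon held more than 1 summit in either list, so the number of members equals the number of exons hit. Placement has no such limit, and a limit of 1 summit per exon was not modelled. Single summits were not particular to short exons: hit exons of 150 to 199 nt also held 1 each. Those of 200 to 299 nt held 1 and 1.001 on average, and those of 1000 nt or more held 1.592 and 1.588. The share of exons hit rose with length, from 10.29% and 12.16% at 1 to 49 nt to 41.89% and 41.45% at 125 to 149 nt.

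Peaks in short exons mostly covered part of the exon. The median width was 82 and 80 bp, with quartiles of 57 and 113 bp in replicate 1 and 55 and 110 bp in replicate 2, and the median peak covered 71.57% and 71.43% of its exon. Widths grew with the exon, from medians of 61 and 52 bp at 30 to 39 nt to 98 and 96 bp at 125 to 149 nt. Of members, 40.54% and 43.68% lay wholly inside the exon, and 18.25% and 16.76% covered all of it. The 5′ end was passed by 34.07% and 32.22% of peaks and the 3′ end by 41.92% and 39.08%, and where an end was passed the median run into the intron was 12 to 13 nt. The lists carry no spliced blocks, so a peak that runs past an exon is not shown to hold intronic reads. Peaks in exons of 150 to 299 nt had medians of 128 and 127 bp, and 67.03% and 69.19% of them lay wholly inside the exon.

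**Figure D2:**
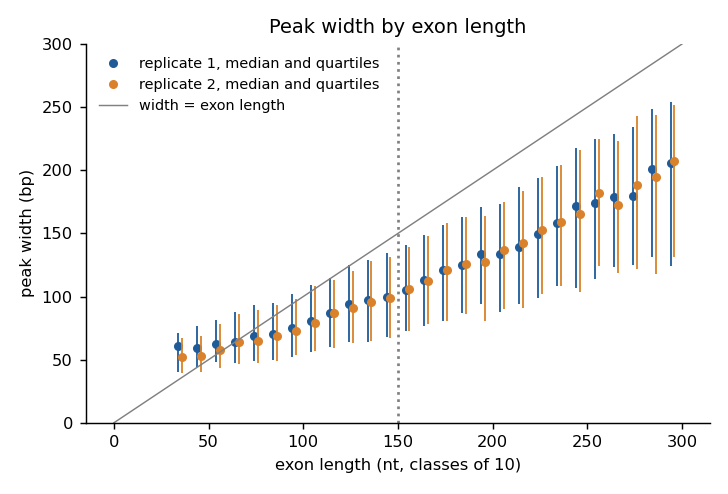
Median peak width in bp (points; bars are the quartiles) in classes of 10 nt of exon length, one colour per replicate, with a grey line where width equals exon length and a dotted line at 150 nt. The median crosses the line near 60 to 70 nt, so peaks of shorter exons are wider than the exon and those of longer exons narrower.

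Summits lay towards the middle of the short exons. With each exon cut into 3 equal parts, the central part held 49.4% and 48.51% of summits where placement gave 33.43% in both replicates, a ratio of 1.464 ± 0.0189 (SD, n = 2). With 10 equal parts, the first held 3.882% and 3.764% against about 10% by placement, and the last held 3.987% and 4.086%. Sparse ends were not particular to short exons. In exons of 150 to 299 nt the first of 10 parts held 2.169% and 2.467%, and the last held 2.393% and 2.612%. Whether peak width holds summits away from exon ends was not tested. In short exons the outer parts of the 3 were near equal, with 25% at the 5′ side and 25.59% at the 3′ side in replicate 1. The central ratio was 1.644 and 1.615 in exons of 50 to 74 nt, 1.677 and 1.622 at 75 to 99 nt, and 1.335 and 1.336 at 125 to 149 nt. It was 1.289 and 1.244 in exons of 150 to 299 nt. Exons of 1 to 49 nt went the other way, at 0.8077 and 0.8691, as in the exons of SH3PXD2A and ARHGAP21 printed above. Where the peak midpoint took the place of the summit, the central ratio was 2.061. The midpoint of a peak that covers most of its exon lies near the centre by construction, so this value adds no support.

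**Figure D3:**
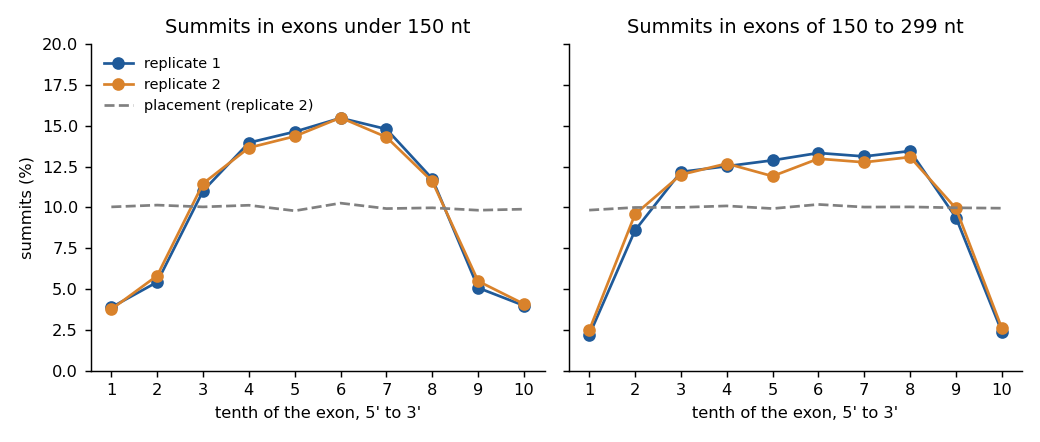
Percentage of summits (y axis) in each of 10 equal parts of the exon from 5′ to 3′ (x axis), for exons under 150 nt (left) and of 150 to 299 nt (right), one colour per replicate, with placement dashed. In short exons the profile is highest in part 6 and falls below 6% in the outer 2 parts at either end, while in longer exons it is flat from part 3 to part 8.

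Most members were weak by the caller's values. The median fold was 3.001 in both replicates, the quartiles were 2.64 and 3.643 in replicate 1 and 2.605 and 3.573 in replicate 2, and the highest values were 10.95 and 10.25. Values recurred across peaks: the commonest single fold was shared by 3.48% and 2.555% of members. In replicate 1, 1945 members (13.51%) had a q no higher than 0.05, and in replicate 2, 1560 (10.66%) did, beside 9.77% and 7.47% of all peaks in each list. In CDS exons of 150 nt or more before the last exon the shares were 11.19% and 8.455%. The order was the same in both replicates, but the gap between replicates was about as large as that between exon kinds. The q was 1 in 53.65% and 57.61% of members.

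Of members, 59.07% and 58.76% overlapped a peak of the other list by at least 1 bp, a mean of 58.91% ± 0.223 (SD, n = 2), beside 60.2% and 64.2% of all peaks. CDS peaks in longer exons before the last overlapped more often, at 67.87% and 71.55%. The share rose with exon length, from 50.4% and 45.49% at 1 to 49 nt to 62.43% and 63.91% at 125 to 149 nt, and widths rose with it. Whether width accounts for it was not tested. Members with a q of at most 0.05 overlapped in 77.71% ± 0.694 (SD, n = 2), and the others in 56.34%.

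By exon, 8189 short exons on 2528 mRNAs held a summit in both replicates, which is 56.88% of those hit in replicate 1 and 55.95% of those hit in replicate 2. Among members on mRNAs with CDS summits in the other replicate, 58.68% and 57.99% had a summit in the same exon there, against 31.92% and 31.58% by placement. Placement allows repeats, and in single lists short exons were already hit 1.477 and 1.496 times as often as it gives. The gap is thus not a measure of agreement between replicates alone. The 2 summits of an exon lay a median of 16 nt apart, 39.16% lay within 10 nt, and 315 pairs fell on the same base. Across the 8189 exons the log2 folds of the replicates had a Pearson r of 0.2565 and a Spearman rho of 0.2399, given as a description, since exons of one mRNA share libraries and expression level and members had to pass the caller's limit. A q of at most 0.05 in both replicates was found in 367 exons, and a fold of at least 5 in both in 125. An adjacent exon held a summit for 73.96% and 73.59% of members, against 54.77% and 54.19% by placement, ratios of 1.35 and 1.358. Placement allows a second summit in the member's own exon. These ratios were no higher than the 1.477 and 1.496 of short exons in single lists, so they do not show that hit exons cluster.

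In most features, exons with a summit were close to placement over the short exons of their mRNAs. Here the expected value is the mean over eligible short-exon positions of the same mRNAs. It weights exons by their length and includes the hit ones, so it does not describe exons without a summit. Counted as exons, the longer of the short exons were hit more often, as given above. The mean length was 108.4 nt against 108.9, the GC content 46.71% against 46.56%, and the share with a length divisible by 3 was 37.74% against 38.29%. Exons kept in every annotated coding transcript that spans them made up 84.04% against 83.17%. A shift was seen in position: the mean location along the CDS was 49.22% against 46.15%, a difference of 3.068 ± 0.288 points (SD, n = 2), so hit exons lay slightly further towards the stop codon. The median intron before a hit exon was 2050 and 2134 nt, and the median intron after it 1943 and 1992 nt. On the log2 scale the mean intron length was 11.06 against 10.99 before the exon, a difference of 0.075 ± 0.027 (SD, n = 2), and 10.94 against 10.83 after it, a difference of 0.108 ± 0.0135 (SD, n = 2), so both introns were slightly longer than by placement in both replicates.

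Sequences of the m6A type stood near summits in short exons about as often as near short-exon positions of the same mRNAs. Windows reached 50 nt up and down the spliced mRNA from each summit and were read on the mRNA strand only. Hit exons had a median length of 112 and 111 nt, so windows within an exon share many bases, which holds ratios near 1. With windows of 25 nt on either side, the TGGAC ratio was 0.9901 and 1.037. TGGAC, the DNA spelling of the word with U in place of T, stood in 14.06% and 14.34% against 14.01% and 14.13% by placement, a ratio of 1.009 ± 0.00785 (SD, n = 2), and in 15.97% of such windows over all short coding exons. GGAC, which TGGAC and GGACT contain, had ratios of 0.9979 and 0.9988, and GGACT had 0.9915 and 0.9986. CACTC had 1.096 and 1.059, ACAC 1.046 and 1.018, CATT 1.007 and 1.013, and GAAGAA 0.9962 and 0.9845. Of the 1024 words of 5 letters, whose ratios had an SD of 0.0308, CGCCA was highest at 1.125 and 1.074, followed by CACCC at 1.108 and 1.074. CACTC ranked 9 and TGGAC 392. A word in a window is a match of letters and not a binding site.

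Members stood on 3865 mRNAs in replicate 1 and 3867 in replicate 2, and on 3173 in both, which is 21.1% of the 15060 MANE mRNAs with eligible short exons. An mRNA with members held a median of 2, and 295 and 288 mRNAs held at least 10. Large mRNAs held the most. UBR4, a ubiquitin ligase of the N-degron pathway, had 45 and 38 members on 60 short exons, where placement of its CDS summits gave 38.4 and 34.03. USP34, a deubiquitinase, had 33 and 40 on 59 short exons, and VPS13C, a lipid transfer protein, had 36 and 36 on 59. SYNE2, the nuclear envelope protein nesprin-2, had 31 and 32 on 47, and HTT, huntingtin, had 33 and 27 on 44. In each of the 5 the members exceeded placement in both replicates. These genes were ranked by their members, which favours such an excess, so it is a description. Among the mRNAs with at least 5 eligible CDS summits and exons of both kinds, 1998 and 1986, members exceeded placement in 80.53% and 79.71%.

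In some mRNAs nearly every short exon was hit. WNK1, a kinase that controls ion transport, and ZMIZ1, a transcriptional coactivator, had a summit in 10 of 10 short exons in both replicates. Placement of their CDS summits gave 2.887 and 3.013 for WNK1, and 6.684 and 6.684 for ZMIZ1. NPAS2, a circadian transcription factor related to CLOCK, had 15 and 16 of 16, and DENND4A, an activator of Rab GTPases, had 15 and 16 of 16. TCF12, a transcription factor of the E-protein family, had 14 and 14 of 15. Placement gave 13.64 and 14.4 for NPAS2 and 12.19 and 12.19 for TCF12, close to their counts, and 9.484 and 10.16 for DENND4A. These genes were ranked by this share, so the shares are a description. Within NPAS2, folds ran from 2.352 to 8.511 in replicate 1 and from 2.62 to 7.417 in replicate 2. Exon 16 had 8.015 and 7.417 and exon 19 had 8.511 and 6.619, both high in both replicates, while exon 5 had 6.347 in replicate 1 and 2.62 in replicate 2. Within WNK1, exon 21 had 6.958 and 4.608, whereas exon 15 had 2.928 and 6.883, so the order of the exons was not the same in the replicates.

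**Figure D4:**
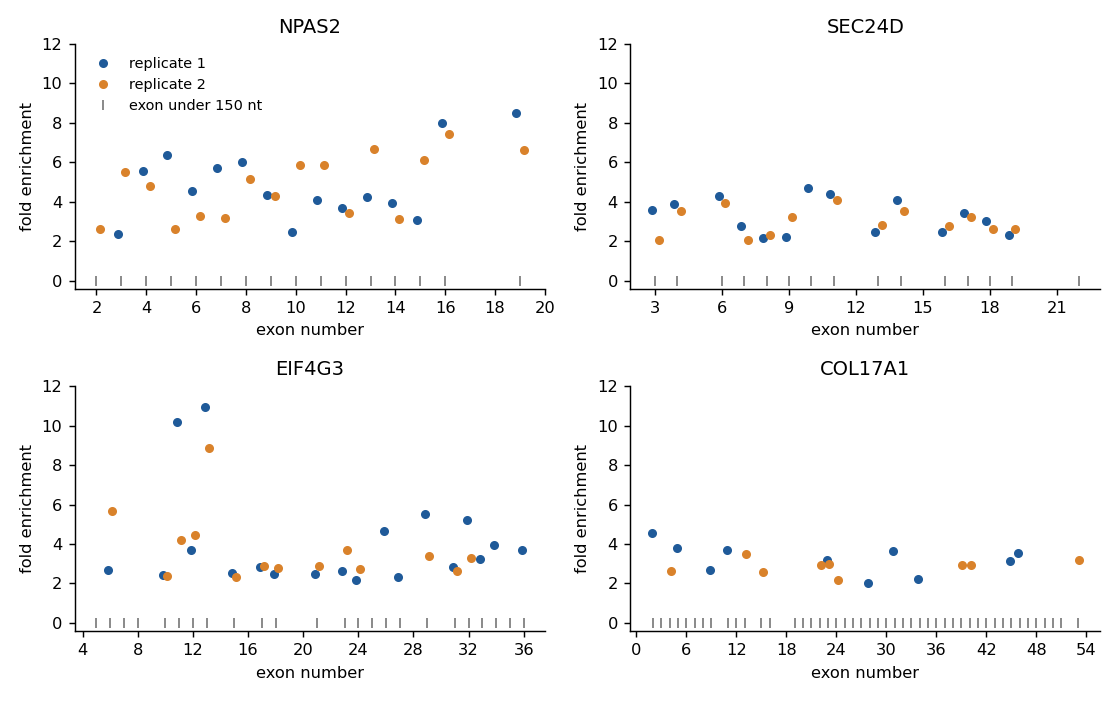
Fold enrichment (y axis) of each short-exon peak by exon number (x axis) in NPAS2, SEC24D, EIF4G3 and COL17A1, one colour per replicate, with grey ticks at 0 for every eligible exon under 150 nt. NPAS2 and SEC24D have peaks in nearly every such exon in both replicates, EIF4G3 has its highest value in exon 13 in both replicates, and COL17A1 shares 1 exon between replicates.

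Gene groups differed widely in how many of their short exons held a summit, and are described beside 21.1% of mRNAs and 7.689% of short exons hit in both replicates over all. A high share did not always go with a high ratio of members to placement, which was 1.244 and 1.261 over all mRNAs. The ratio was 1.329 and 1.329 for the COPII coat, 1.187 and 1.236 for PI3K-related kinases, and 1.434 and 1.379 for nesprins, plakins and spectrins. It was 1.216 and 1.263 for nuclear pore genes and 1.069 and 1.087 for cohesin and condensin. The lists do not give expression, so an mRNA without a peak is not shown to be unbound, and less RNA and fewer peaks cannot be told apart. Groups also differ in short exons per gene, with 191 in 6 PI3K-related kinases and 106499 in 15060 mRNAs over all. A gene with more short exons has more places for a member, and shares of genes were not adjusted for this. The COPII coat, which buds vesicles from the endoplasmic reticulum, had members in both replicates in 8 of 12 genes and in 54 of 148 short exons. SEC24D, a cargo adaptor of the coat, had 14 and 13 of 15 short exons, with folds of 2.161 to 4.681 in replicate 1 and 2.055 to 4.078 in replicate 2, and SEC24B had 12 and 13 of 14. The PI3K-related kinases had members in both in 6 of 6 genes and 58 of 191 exons, led by MTOR, a kinase of growth control, with 26 and 21 of 39, and TRRAP, a scaffold of acetyltransferase complexes, with 21 and 19 of 33. Nesprins, plakins and spectrins, which tie the cytoskeleton to membranes, had 7 of 11 genes and 58 of 321 exons, and DST had 21 and 21 of 46.

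Nuclear pore genes had members in both replicates in 18 of 27 genes and in 65 of 391 exons. NUP214, a nucleoporin of the cytoplasmic face, had 14 and 16 of 17, and NUP155, a scaffold nucleoporin, had 14 and 11 of 27. Cohesin and condensin genes had 14 of 20 genes and 36 of 330 exons, led by NIPBL, the cohesin loader, with 17 and 18 of 28, and STAG1, a cohesin subunit, with 9 and 15 of 24. Translation initiation genes had only 3 of 26 genes in both and 15 of 239 exons. EIF4G3 alone made up 14 of those 15, with 19 and 14 of its 24 short exons hit, and its paralog EIF4G1 had none of 20. EIF4E, the cap-binding protein, had 2 and 2 of 6.

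Other groups lay at or below the background. The proteasome had 2 of 30 genes in both replicates and 0 of 202 exons, and its leading genes PSMD1 and PSMD11, both of the regulatory particle, had 1 and 1 member each. The spliceosome core had 4 of 30 genes and 5 of 318 exons, led by AQR, a helicase, with 8 and 10 of 24, and by PRPF8, with 2 and 3 of 18. Aminoacyl-tRNA synthetases had 5 of 20 genes, close to the background, but 2 of 276 exons. FARSB had 6 and 1 members and KARS1 had 5 and 1, most of them in replicate 1. Laminins and integrins had 6 of 36 genes and 16 of 692 exons, led by the integrin subunits ITGA2, with 15 and 13 of 23, and ITGAV, with 9 and 6 of 24. Collagens, with many very short exons, had 1 of 25 genes and 1 of 1162 exons. That gene was COL17A1, the hemidesmosome collagen of epithelia, with 10 and 9 of 47.

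**Figure D5:**
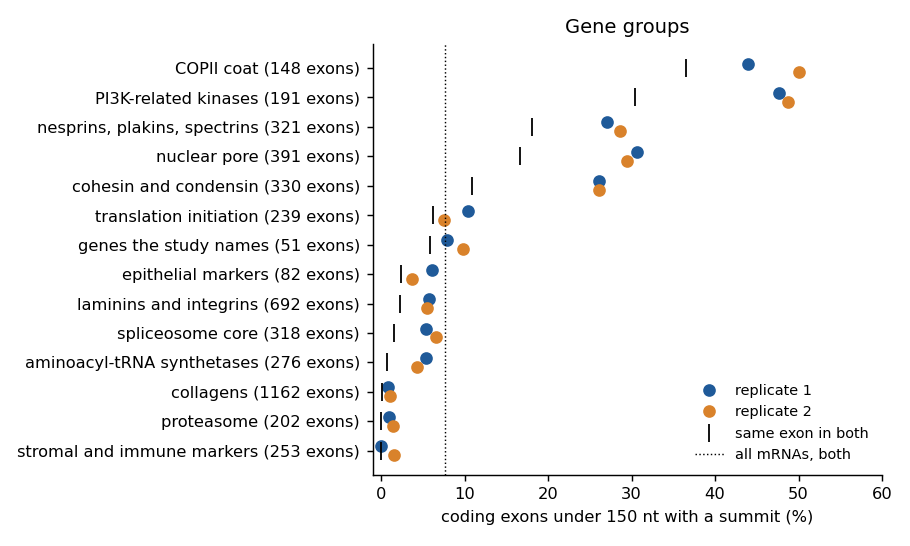
Percentage of eligible exons under 150 nt with a summit (x axis) in 14 gene groups, with the number of exons in brackets; points are replicates, black ticks are exons hit in both, and the dotted line is the value of ticks over all mRNAs. COPII coat and PI3K-related kinases lie furthest right, and collagens, proteasome and stromal and immune markers lie near 0.

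Among epithelial markers, 2 of 11 genes had members in both replicates. ERBB3, a receptor of the EGFR family, had 3 and 1, and CDH1, E-cadherin, had 1 and 2, while EPCAM, ERBB2, KRT8, KRT18 and KRT19 had 0. Markers of fibroblasts, endothelium and immune cells had 0 of 14 genes in both, and in replicate 2 alone the fibrillar collagens COL1A1 and COL3A1 had 3 and 1. Short-exon peaks are thus too sparse in these genes to check the labelled cell type.

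Of the genes that the study names, 2 of the 9 with eligible short exons had members in both replicates, which is 22.22% beside 21.1% of all mRNAs, and 3 of their 51 short exons were hit in both. The other 7 had no member in either. Among these, CDC25A had no member in either replicate on its 12 eligible short exons. The study reports IGF2BP3 binding on CDC25A in the 3′ untranslated region, which members exclude by rule. The absence of members therefore does not bear on that binding. CCNE2, cyclin E2, had 3 and 4 members on 8 short exons, all weak. Exon 3 had folds of 2.717 and 3.329, exon 7 had 2.921 and 1.88, and exon 10 had 2.182 and 2.073, all with a q of 0.9121 or 1. WEE1, a kinase that inhibits CDK1, had 1 and 1. In replicate 1 it was exon 6, with a fold of 4.445 and a q of 0.04266, and in replicate 2 it was exon 7, with 2.906 and a q of 1, so no exon of WEE1 was shared.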

How the data were processed

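Peaks of 2 IGF2BP3 RIP samples of OE-19 cells were analysed; 2 input samples have no peak list here. The study's methods name Tophat2 and MACS2 at default settings, while the submitters' processing notes list fastp, HISAT2 and MACS2 with hg38. The deposited fold enrichment is a ratio given by the authors' caller, and its p-values and q-values were deposited as −log10. The smallest −log10 p was 2 and 2.002, so the lists appear limited on an uncorrected p. The caller's control library is not given in the sources used here, and read depth is unknown, so no counting interval is given. Lists carry no strand.

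Summits were assigned to GENCODE 44 MANE Select mRNAs with Python 3.11.15, numpy 2.4.6 and pandas 2.3.3. No peak ran past a chromosome end of hg38, and 12 of 12 printed exons matched the genome. Placement was computed exactly from lengths and checked on simulated data. Intervals of ± are SDs over 2 replicates, which may be technical. No test was run. Exons and genes are named by rule: the 6 highest mean folds, the 5 largest lower −log10 q, the 5 shortest exons hit in both, the 5 genes with most members, the 5 with the highest share of at least 10 short exons hit in both, the 2 leading genes of each list, and study-named genes. Single exons of NPAS2, WNK1 and EIF4G3, and EIF4G1, were named after their values were seen. The members and lists were chosen with earlier results of these data known.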

Additional observations from a re-analysis of the deposited data

How the results depend on the processing

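No paired analysis was possible because the inputs have no peak list and no result comes from a test. Leaving out either replicate gave 14398 to 14637 members, a placement ratio of 1.244 to 1.261, an overlap of 58.76% to 59.07%, a central ratio of 1.451 to 1.478 and a TGGAC ratio of 1.004 to 1.015. The placement and central ratios stayed above 1 under every alternative run for them, but the central ratio by midpoint is largely fixed by peak width. None of these alternatives modelled a limit of 1 summit per exon. At a q of at most 0.05 in both lists there were 1752 members on average, with a placement ratio of 1.438, 21.86% overlap, 367 exons in both replicates and a central ratio of 1.709. At a fold of at least 5 these were 747.5, 1.377, 17.51%, 125 and 1.755, with a TGGAC ratio of 1.028. At a p of at most 1e-05, chosen after seeing the data, they were 3122, 1.462, 26.4%, 802 and 1.636, and the TGGAC ratio was 0.9986. Overlap falls by construction when both lists are cut. Peaks shared by both replicates gave 8552 members and a ratio of 1.212. Exons under 120 nt gave 8797 members, 1.274, 56.37%, 4668 exons, a central ratio of 1.543 and a TGGAC ratio of 0.9986. Exons under 180 nt gave 1.225, 61.14% and 1.429. Any CDS position gave 1.271, exons under 300 nt alone (chosen after seeing the data) 1.086, the peak midpoint a central ratio of 2.061, overlap required over most of both peaks (50% or more of each) 44.02%, and windows of 100 nt a TGGAC ratio of 1.024. The TGGAC ratio thus lay on either side of 1, and the cause of these moves was not tested. Unknown depth limits what the absence of a peak shows.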
